A study of Mus musculus with 8 samples.

Results

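A set of 8 genes known as markers of club cells, other than the secretoglobins and the cytochrome P450 enzymes, were followed in mouse lung after naphthalene. They were Cckar, Gabrp, Chad, Iyd, Upk3a, Cbr2, Pon1 and Lypd2, taken by gene symbol, and all 8 were found among the 22244 genes of the count table. RNA came from the right cranial lobe of adult male wild-type C57BL/6J mice, with 4 untreated control mice and 4 mice injected with naphthalene, a single library per mouse. Neither a vehicle injection in the controls nor the dose or the time to sampling is given in the sources used here, so effects of injection and of naphthalene cannot be told apart. Whole lobes were sequenced, and in such bulk RNA fewer cells of a type and less RNA per cell cannot be told apart.

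Club cells are the secretory cells of the mouse airway. They carry P450 enzymes that turn naphthalene into reactive metabolites, which is why the compound is used as a model of airway injury, and club cells that survive can divide and replace those that were lost. A subset that lies beside clusters of neuroendocrine cells is known to carry Upk3a and little P450 enzyme. The 8 genes have little in common in function. Gabrp and Cckar encode a chloride channel subunit and a peptide hormone receptor, Lypd2 and Upk3a encode proteins of the cell surface, Chad encodes a matrix protein, and Pon1, Iyd and Cbr2 encode enzymes.

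Sequence upstream of the start site was examined because the members moved together. RefSeq windows (build GRCm38.p6, 250 bases before to 50 after the start site) matched 6 of the 8 members, all but Cckar and Lypd2. Stretches of 250 upstream bases are shown: Gabrp and Cbr2, whose falls were the largest and the smallest of the tested members, Iyd, and the P450 gene Cyp2f2 for comparison. Gabrp lies at chr11:33578958-33579207 on the minus strand and Cbr2 at chr11:120732022-120732271 on the minus strand. Iyd lies at chr10:3540024-3540273 on the plus strand and Cyp2f2 at chr7:27119705-27119954 on the plus strand. Capitals mark matches to any of 7 motifs searched on both strands.
Gabrp: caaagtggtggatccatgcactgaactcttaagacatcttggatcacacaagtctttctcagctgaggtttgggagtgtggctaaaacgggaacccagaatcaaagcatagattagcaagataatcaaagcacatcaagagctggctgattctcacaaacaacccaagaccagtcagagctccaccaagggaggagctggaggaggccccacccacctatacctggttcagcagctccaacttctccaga
Cbr2: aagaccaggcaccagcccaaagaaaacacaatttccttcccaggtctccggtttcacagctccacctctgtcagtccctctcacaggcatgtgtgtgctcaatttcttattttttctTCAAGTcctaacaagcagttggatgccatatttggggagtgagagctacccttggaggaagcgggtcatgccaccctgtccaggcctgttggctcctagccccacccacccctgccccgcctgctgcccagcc
Iyd: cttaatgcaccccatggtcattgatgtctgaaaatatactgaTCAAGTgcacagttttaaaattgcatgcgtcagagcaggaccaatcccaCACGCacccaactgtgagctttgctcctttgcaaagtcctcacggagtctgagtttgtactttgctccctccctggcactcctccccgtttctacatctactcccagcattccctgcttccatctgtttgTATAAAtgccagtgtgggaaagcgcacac
Cyp2f2: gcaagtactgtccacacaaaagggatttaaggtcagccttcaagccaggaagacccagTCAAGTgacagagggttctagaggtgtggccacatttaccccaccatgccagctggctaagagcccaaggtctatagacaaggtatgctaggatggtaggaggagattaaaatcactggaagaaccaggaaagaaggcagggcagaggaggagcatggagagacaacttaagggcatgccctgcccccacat
The letters ACTTGA, a form of the site of the lung transcription factor NKX2-1, were found on the opposite strand, where they read TCAAGT in the lines above, at positions -133 of Cbr2, -208 of Iyd and -192 of Cyp2f2 relative to the start site. They stood in 2 of the 6 member windows, Iyd and Cbr2, and in 11.2% of all 32841 windows. TATAAA, the TATA box, stood in 2 of the 6 (Chad and Iyd, at -28 and -29) and in 13.6% of all windows. The C/EBP motif TTGCNNAA stood in Upk3a and Pon1 and in 10.8% of all windows, and GCGTG, the core of the aryl hydrocarbon receptor element, in Iyd and in 32.4% of all windows. No member window held TGTTTAC (FOXA, 3.65% of all windows), TGACNNNGC (the NRF2 element, 12.4%) or AACCGGTT (GRHL, 0.146%). No matches in the member windows overlapped each other, and no motif was shared by more than 2 members.

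Total counts were 10743842 to 13518183 in controls and 11233709 to 16792306 after naphthalene. The share of mitochondrial counts was 0.654% to 0.892% and 0.522% to 0.923%. More genes had a count after naphthalene, 16781 to 17789 against 16180 to 16283. Genes of chromosome 1 were listed at 0 in every library almost without exception (1159 of 1172, or 98.9%, against 0.659% to 11.85% on other autosomes), including ribosomal protein genes such as Rpl7 and Rpl31. No member lies there, but 16 genes of the lists used for comparison do, and those had no usable value. Sftpc, the surfactant gene that marks alveolar type 2 cells, stood at 6452 ± 778 CPM in controls (counts scaled to each library's TMM-adjusted total, mean ± SD, n = 4, as for all levels here), and Scgb1a1, the main club cell secretoglobin, at 4785 ± 1564 CPM.

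Naphthalene was compared with control to ask how far each marker moved. All 7 members with enough counts for the test fell, and in each the 4 naphthalene libraries lay below the 4 controls. Gabrp fell the furthest, to 12.5% of its control mean, and Cbr2 the least, to 55.5%. The calls are edgeR quasi-likelihood tests adjusted over 14192 tested genes, of which 2070 were lower, or 14.6%, and 14.7% were lower with no overlap between groups. In either direction 28.7% passed and 28.6% had no overlap. A log2 fold change of -1 or below that passed was found in 6 of the 7 tested members and in 5.47% of tested genes. The median log2 fold change was -1.93 over the 7 tested members and 0.01 over all tested genes. No tested member had fewer than 15 counts in any library. Upk3a was too low to test, with 24 counts over the controls and 6 over the naphthalene libraries.

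**Figure D1:**
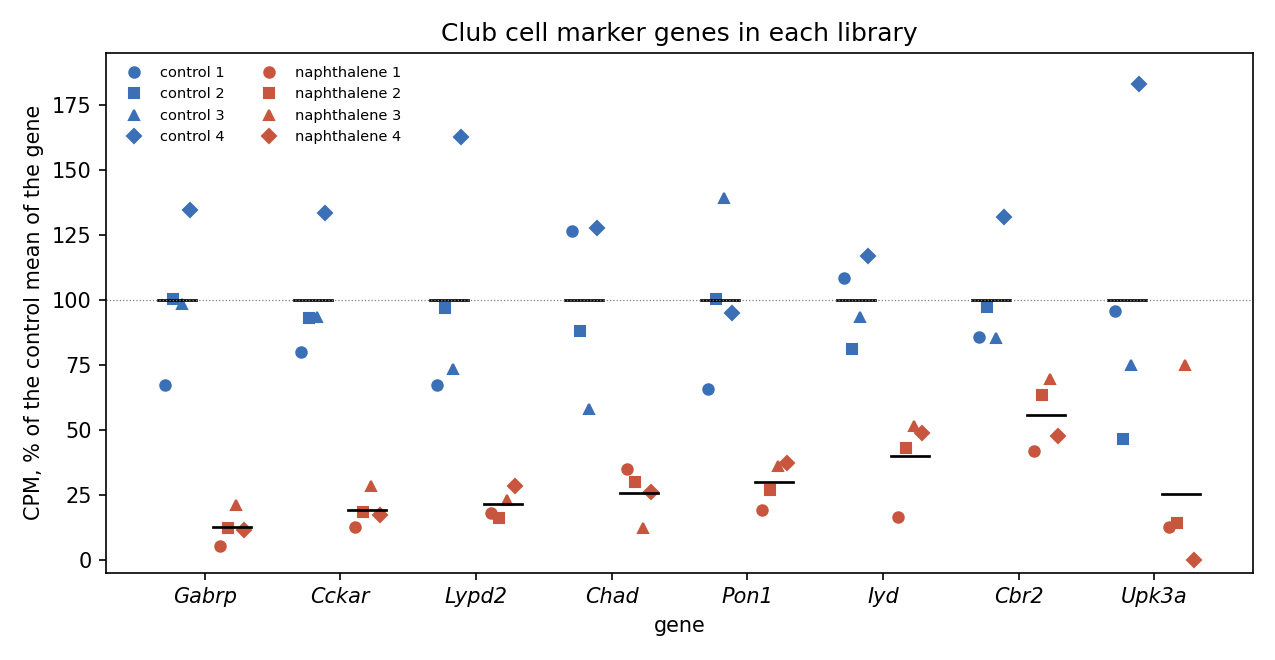
Level of each member in each library as a percentage of the control mean of that gene (vertical axis, CPM), for 4 control (blue) and 4 naphthalene (red) libraries, with symbols for the replicate number and black lines for group means. The groups do not overlap for 7 genes, while for Upk3a, with few counts, naphthalene 3 lies at 74.9% of the control mean, within the control range.

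Levels between genes can be set side by side per kilobase of exon (lengths from GENCODE M21). In controls Cbr2 stood far above the rest, at 1275 ± 281 CPM per kb. Lypd2 (36.9 ± 16.1), Pon1 (34.5 ± 10.4) and Gabrp (34.5 ± 9.49 CPM per kb) came next and differed from each other by less than the spread between mice. Cckar followed at 19.0 ± 4.41, Chad at 6.49 ± 2.18, Iyd at 3.36 ± 0.533 and Upk3a at 0.429 ± 0.253 CPM per kb. After naphthalene Cbr2 was still the highest at 708 ± 166 CPM per kb. Pon1 (10.3 ± 2.92) and Lypd2 (7.90 ± 2.08 CPM per kb) now stood above Gabrp (4.33 ± 2.24) and Cckar (3.62 ± 1.26), with Chad at 1.67 ± 0.636 and Iyd at 1.34 ± 0.541 CPM per kb. Gabrp and Pon1 thus shared a level per kb in controls, and Gabrp was the lower of the pair in every naphthalene library.

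Gabrp encodes the pi subunit of the GABA-A receptor, a ligand-gated chloride channel that in this form is found mainly outside the nervous system. It was at 78.1, 116.6, 114.5 and 156.6 CPM in controls 1 to 4 and at 6.25, 14.2, 24.6 and 13.4 CPM in naphthalene 1 to 4. Control 4 was the highest control, and naphthalene 1 was the lowest of the treated libraries. The log2 fold change was -3.01 (SE 0.45, from the spread of log2 CPM between mice, edgeR adjusted p = 0.000142), and 0.324% of all tested genes fell further. Of 18 other subunits of the receptor listed, 5 had enough counts to be tested, and none of the 5 passed in edgeR (Gabre at a log2 fold change of -0.38 and Gabrq at 0.46 had the smallest p). Without naphthalene 4, 1 subunit was lower, whereas 1 was higher with the GC and length correction and 1 with no filter on low counts.

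Cckar encodes the cholecystokinin A receptor, a G protein-coupled receptor best known from pancreas and gallbladder. Controls 1 to 4 held 55.9, 65.0, 65.1 and 93.3 CPM and naphthalene 1 to 4 held 8.63, 12.8, 19.7 and 12.1 CPM. As for Gabrp, control 4 was the highest control, naphthalene 1 the lowest and naphthalene 3 the highest treated library. Cckar fell to 19.1% of its control mean, with an edgeR adjusted p of 6.35e-05, the smallest among the members (log2 fold change -2.403, SE 0.29). Its ligand genes and its sister receptor had few counts. Cck, which encodes cholecystokinin, was at 0 in each control and at 2, 4, 3 and 0 counts in naphthalene 1 to 4. Cckbr, the sister receptor, was at 0, 0, 1 and 0 counts in controls and at 2, 3, 5 and 1 in the naphthalene mice. None of the 3 genes listed beside Cckar was tested.

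Lypd2 encodes a protein of the Ly6/uPAR family, small proteins tethered to the cell surface. It was at 16.9, 24.3, 18.4 and 40.7 CPM in controls 1 to 4 and at 4.52, 3.98, 5.80 and 7.14 CPM in naphthalene 1 to 4. Control 4 was again the highest by far, and the treated libraries were close together. Lypd2 fell to 21.4% of the control mean (log2 fold change -2.25, SE 0.34, edgeR adjusted p = 0.000317). In the same family Ly6d fell from 7.51 ± 1.92 to 3.51 ± 1.29 CPM, and the other 4 of 5 tested genes did not pass. Slurp1, a family member that is the nearest coding neighbour of Lypd2 in the annotation, stood at 7.23 and 6.01 CPM on average. Without naphthalene 1, without naphthalene 3 and with limma voom, 2 genes of that family were lower, and with no filter on low counts 1 was higher.

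Upk3a encodes uroplakin 3A, a protein of the membrane plaques of bladder epithelium. It had 5, 3, 4 and 12 counts in controls 1 to 4 and 1, 1, 4 and 0 counts in naphthalene 1 to 4. Naphthalene 3 was as high as control 3, at 0.351 CPM each, so the groups overlapped. The summed counts gave a ratio of 0.231 (95% interval 0.0772 to 0.580, exact binomial, counting error only). An exact permutation test over the libraries, 2-sided, gave p = 0.0571, and edgeR without the filter on low counts gave a log2 fold change of -1.999 with adjusted p = 0.0986. A fall was therefore not shown for Upk3a at this depth. Neuroendocrine genes, which mark the neighbours of Upk3a cells, went the other way: of 6 tested, Uchl1 rose from 2.09 ± 0.503 to 16.7 ± 5.96 CPM and Calca from 1.26 ± 0.274 to 5.99 ± 2.85 CPM, and 4 did not pass.

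Chad encodes chondroadherin, a leucine-rich repeat protein of cartilage matrix that binds integrins. Controls 1 to 4 held 13.8, 9.58, 6.33 and 13.9 CPM and naphthalene 1 to 4 held 3.81, 3.26, 1.32 and 2.84 CPM. Control 3 and naphthalene 3 were the low libraries of their groups. Chad fell to 25.7% of its control mean (log2 fold change -1.93, SE 0.41, edgeR adjusted p = 0.00127). Among 13 related leucine-rich repeat genes listed, 8 were tested and none of them passed in edgeR, with Podn at a log2 fold change of -0.43 and Omd at 0.63. Without control 3 or naphthalene 1, 1 of them was higher and 1 lower, and without naphthalene 4, 3 were lower. With the GC and length correction 2 were higher and 3 lower. Chad lies within Acsf2, which runs on the opposite strand, shares 0 exon bases with it in GENCODE M21 and also fell (28.1 to 11.2 CPM, edgeR adjusted p = 0.00068).

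Pon1 encodes paraoxonase 1, an esterase and lactonase that liver secretes into blood on high density lipoprotein. It was at 65.6, 100.1, 139 and 94.96 CPM in controls 1 to 4 and at 19.2, 26.7, 36.0 and 37.1 CPM in naphthalene 1 to 4. Control 1 was the lowest, as in Gabrp and Cckar, but the highest was control 3, where those genes had control 4. Pon1 fell to 29.8% of its control mean (log2 fold change -1.76, SE 0.31, edgeR adjusted p = 0.000476). The other paraoxonases, which sit beside it in the genome, did not pass: Pon3 was at 326 ± 31.9 and 272 ± 65.3 CPM and Pon2 at 112 ± 5.61 and 104 ± 2.21 CPM. Without naphthalene 4, 1 of these 2 genes was lower, as it was with the GC and length correction described with the within-group deviations.

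Iyd encodes iodotyrosine deiodinase, which frees iodide from iodinated tyrosines and is best known from the thyroid. Controls 1 to 4 held 5.92, 4.43, 5.10 and 6.37 CPM and naphthalene 1 to 4 held 0.893, 2.35, 2.81 and 2.66 CPM. The controls were the closest of any tested member relative to their mean (5.45 ± 0.865 CPM), whereas naphthalene 1 lay well below the other treated libraries. Iyd fell to 39.9% of its control mean (log2 fold change -1.35, SE 0.37, edgeR adjusted p = 0.00736). Among the iodothyronine deiodinases the only gene tested, Dio2, which activates thyroid hormone, rose from 3.02 ± 1.19 to 21.05 ± 8.06 CPM (edgeR adjusted p = 0.000149).

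Cbr2 encodes a carbonyl reductase abundant in mouse lung, which reduces aldehydes and ketones. It was at 1447, 1645, 1440 and 2233 CPM in controls 1 to 4 and at 704, 1075, 1173 and 806 CPM in naphthalene 1 to 4. All treated libraries lay below all controls, and naphthalene 3, at 69.3% of the control mean, came closest to them. The log2 fold change was -0.85 (SE 0.23, edgeR adjusted p = 0.00713), and 7.33% of all tested genes fell further. Of 4 other tested carbonyl reductases of its type, Dcxr, its nearest coding neighbour on the same strand, fell from 78.2 ± 15.4 to 53.5 ± 7.22 CPM and Cbr3 rose from 10.8 ± 1.98 to 15.4 ± 2.58 CPM. Cbr1 and Cbr4 did not pass. Cbr3 lost its call without controls 1, 2 or 3, without naphthalene 2 or 3, and with upper quartile scaling, each leaving 0 genes higher.

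Each member was also set against the tested genes of its own family by the difference in log2 CPM within each library. This comparison was chosen after the members had been seen to fall while most family genes did not pass. Its p-values therefore add no support to those falls. In 20 of 25 comparisons the difference did not overlap between groups and passed (exact 2-sided permutation, adjusted p = 0.0357, the smallest that was reached). Each of the 20 had the smallest raw p the design allows, 0.0286. The members already had no overlap between groups on their own, and the share over other pairs of genes was not computed. Gabrp changed by log2 values of -3.52 to -2.73 relative to all 5 other subunits. Pon1 changed by -1.46 (SE 0.25) relative to Pon3 and by -1.64 (SE 0.29) relative to Pon2. Iyd and Dio2 parted by -4.10 (SE 0.59). Chad passed against 5 of 8, Cbr2 against 3 of 4 and Lypd2 against 4 of 5. The pairs that did not pass were Cbr2 with Dcxr (-0.32, SE 0.14), Lypd2 with Lypd6 (-0.91, SE 0.63) and Chad with Lum, Ogn and Aspn.

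**Figure D2:**
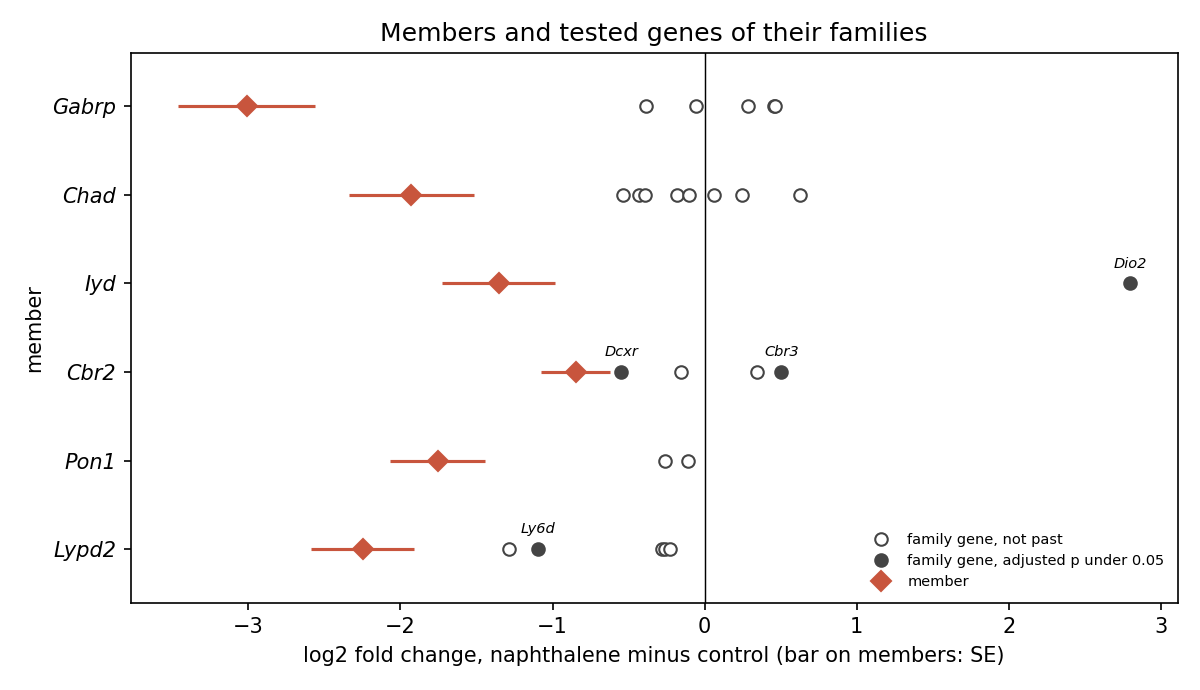
Log2 fold change of each tested member that has a tested family gene, which leaves out Cckar (red diamonds, bar = SE). Circles are the tested genes listed beside each member, filled where edgeR adjusted p was under 0.05. Every member shown lies to the left of its family genes, and Dio2 at 2.80 lies furthest from its member, Iyd at -1.35.

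By their values the members fell by different factors, but no difference between them passed after adjustment. Among the 21 pairs that leave out Upk3a, the difference in log2 CPM did not overlap between groups in 7. The share over other pairs of genes was not computed. The change of Gabrp minus that of Pon1 was -1.35 (SE 0.32), that of Iyd -1.73 (SE 0.28) and that of Cbr2 -2.24 (SE 0.28), and the change of Cckar minus that of Gabrp was 0.68 (SE 0.19). Cckar differed from Iyd by -1.05 (SE 0.25) and from Cbr2 by -1.56 (SE 0.13). The change of Cbr2 minus that of Lypd2 was 1.28 (SE 0.30). None passed after adjustment over all 28 pairs. The exact 2-sided permutation test cannot go below p = 0.0286 with 4 against 4 libraries, and these 7 pairs reached it (adjusted p = 0.0889). At that p a pair can pass only if many more pairs also reach it, whatever the size of its difference. The lack of a pass therefore does not show that the factors were equal. Values that involve Upk3a depended on the prior count and are not compared.

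**Figure D3:**
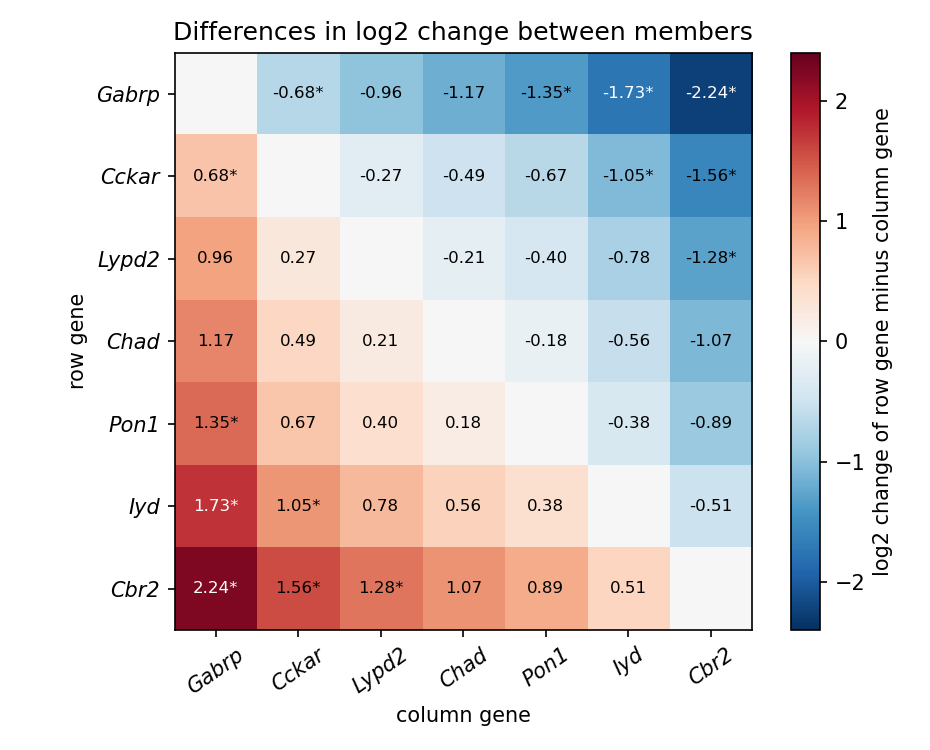
Difference in log2 change between each row gene and each column gene, from log2 CPM within libraries, with an asterisk where the 4 naphthalene and 4 control differences do not overlap. The strongest colour is between Gabrp and Cbr2, at -2.24 for Gabrp minus Cbr2.

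Each member was then set against both reference genes of club cells in the same way. Scgb1a1 fell to 27.7% and Cyp2f2, the P450 enzyme that activates naphthalene, to 16.2% of their control means. Relative to Scgb1a1, the change of Gabrp was lower (log2 difference -1.18, SE 0.20) and that of Cbr2 was smaller (1.06, SE 0.22), both with no overlap between groups. Relative to Cyp2f2, Cbr2 differed by 1.79 (SE 0.13) and Iyd by 1.28 (SE 0.37), again with no overlap. Chad, Pon1 and Lypd2 differed from Scgb1a1 by -0.01 (SE 0.71), 0.17 (SE 0.40) and -0.22 (SE 0.41), less than their spread. Of the 16 comparisons 0 passed after adjustment (exact 2-sided permutation, smallest adjusted p = 0.0914), and 5 reached the smallest raw p the design allows. The fifth was Upk3a against Cyp2f2, whose difference of 1.39 was 0.60 with a prior count of 0.5, and it is not read further. As with the pairs of members, a comparison at that raw p could pass only if more of them reached it, whatever its size.

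Other airway secretory genes, listed beside the members, mostly fell too. Of 9 tested secretoglobins and P450 genes 7 fell and 2 rose, with a median log2 fold change of -1.85. Cyp2f2 (-2.62, SE 0.33), Cyp2s1 (-1.96) and Scgb3a2 (-2.30) had the smallest p among them. Of 12 tested genes of club and other airway secretory cells 8 fell and 2 rose, with a median of -1.46, among them the airway mucin gene Muc5b (-3.79), Slc16a11 (-2.16) and Bpifb1 (-3.27). Muc5b, Sult1d1 and Bpifb1 thus had changes beyond that of Gabrp, and Aldh1a1, at -0.35 and not past the test, had a change smaller than that of Cbr2. Of 9 tested transcription factors of airway epithelium Foxa1 (-0.53) and Sox2 (-0.86) fell and Cebpd (1.57) rose, with 6 not past. Markers of ciliated cells, the other main airway cell, were lower in 9 of 10 tested, while 4 of 11 alveolar type 2 and 4 of 9 alveolar type 1 genes were higher and 0 lower. Of all tested genes 14.1% were higher and 14.6% lower. The type 2 count of higher genes was 2 without control 1, control 2 or naphthalene 2, and the type 1 count was 2 without control 2 or control 4. The type 2 count of lower genes was 1 without naphthalene 4 and 1 with the GC and length correction. Without control 1, control 4 or naphthalene 3, 1 of the transcription factors was lower.

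**Figure D4:**
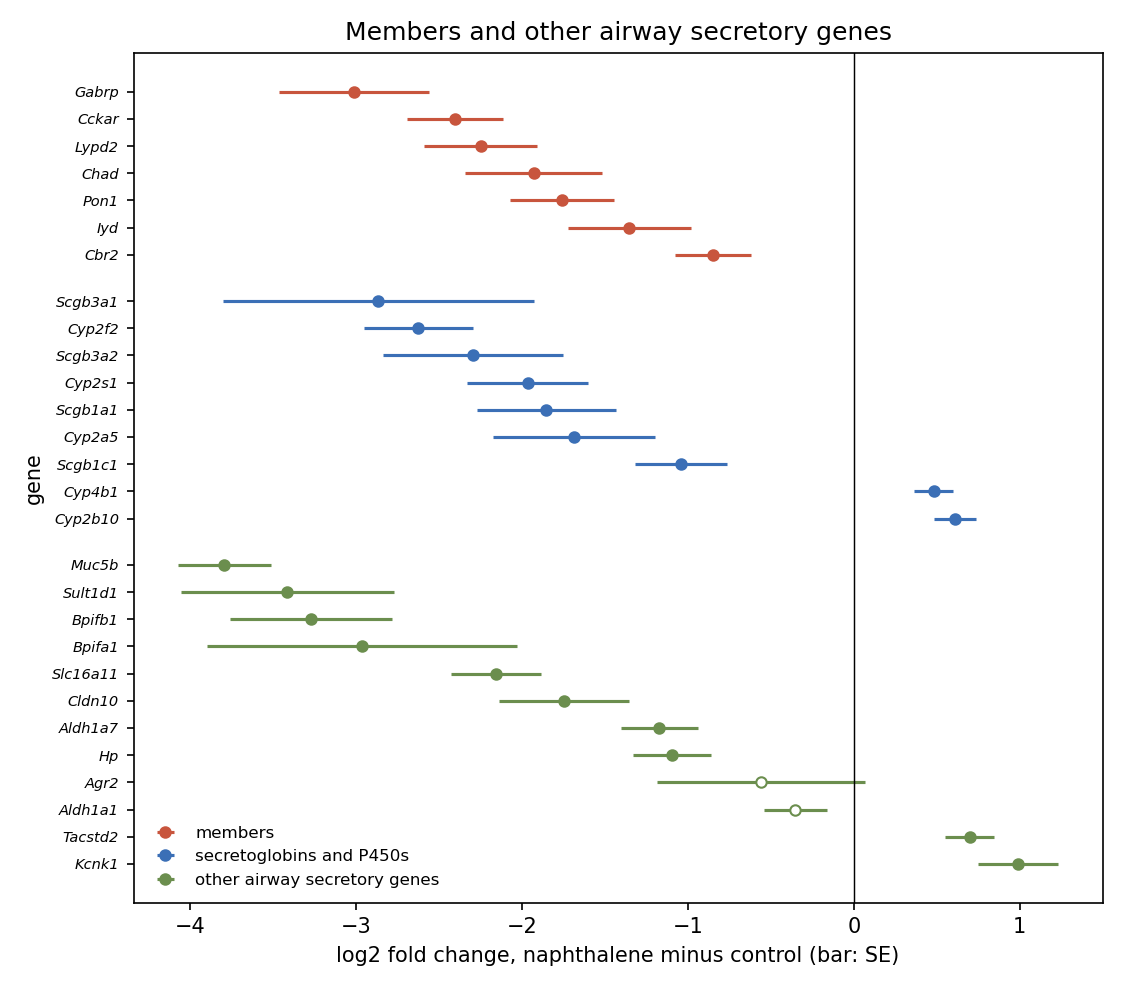
Log2 fold change (bar = SE) of the 7 tested members (red), 9 secretoglobins and P450 genes (blue) and 12 other airway secretory genes (green), with open circles where edgeR adjusted p was not under 0.05. The members span -3.01 to -0.85, and the genes called lower in the other lists span -3.79 (Muc5b) to -1.04 (Scgb1c1), so that Cbr2 lies above that span.

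Several members are also known from other cells, so markers of those cells were read in the same libraries. Cartilage is a source of Chad. Its defining gene Col2a1 was at 1, 4, 1 and 1 counts in controls 1 to 4 and at 9, 10, 3 and 6 in naphthalene 1 to 4, Acan was at 0 in all controls, and of 4 tested cartilage genes Matn4 fell (51.3 ± 5.36 to 31.3 ± 5.26 CPM). The summed level of the 14 listed, most of it Matn4, was 53.2 to 67.9 CPM in controls and 35.4 to 48.7 after naphthalene. Liver is a source of Pon1. Alb, which encodes albumin, was at 7, 21, 56 and 3 counts in controls 1 to 4 and at 5, 10, 13 and 4 in naphthalene 1 to 4, with the highest value in control 3, where Pon1 was also highest. Without control 3 the log2 fold change of Pon1 was -1.56 (edgeR adjusted p = 0.00111). The 10 liver genes summed to 9.41 to 18.7 and 6.87 to 9.999 CPM. Of 2 tested, Cyp2e1 fell (-0.73), a call lost without control 2 or control 4, and without control 3 a liver gene was higher.

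The same reading was made for the other sources. Thyroid genes summed to 10.8 to 16.1 CPM in controls and 20.3 to 28.03 after naphthalene, and 2 of 4 tested, Tshr and Tg, rose (1 of 4 without control 1, control 4 or naphthalene 2) while Iyd fell. For the bladder genes the summed level was 126.6 to 171 and 106 to 151 CPM, with Upk2 at 1 to 6 and 1 to 3 counts. Of the 2 tested, Upk1b stood at 59.2 and 60.0 CPM and Upk3b at 95.9 and 69.6 CPM, and neither passed (1 was lower without control 3, without naphthalene 4, with upper quartile scaling and with DESeq2, and with no filter on low counts 1 was lower and 1 higher). Interstitial macrophages, another source of Cbr2, had 3 of 7 tested genes higher (Cd163, Lyve1 and F13a1) and 0 lower, with summed levels of 633 to 759 and 906 to 1281 CPM. Non-classical monocytes, a source of Lypd2, had 7 of 8 tested genes lower, with a median of -1.09. The smallest p were those of Itgal (-1.13), Spn (-1.42) and Treml4 (-1.05). The 8 genes summed to 818 to 910 CPM in controls and 589 to 1444 CPM after naphthalene. Most of that sum was Ace (685 ± 54.4 and 801 ± 393 CPM), the gene that did not pass, so the sum says little of the other 7. Without control 3 or control 4, 4 of those 8 were lower. The part of monocyte RNA in the fall of Lypd2 was not tested.

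Within groups the 15 pairs of tested members without Chad had positive correlations of very unequal size. Deviations of log2 CPM from the group mean, over 8 libraries, correlated at r = 0.96 between Cckar and Gabrp, 0.91 between Cckar and Cbr2 and 0.85 between Gabrp and Cbr2, but only at 0.28 between Cbr2 and Pon1, 0.33 between Iyd and Lypd2 and 0.34 between Pon1 and Lypd2. The median over all 21 pairs of tested members was 0.51. These are descriptions of 8 libraries that share their preparation and depth. Control 4 lay above its group mean for 6 of 7 tested members, naphthalene 3 for 6 and naphthalene 1 for 1. Chad went against them: it was 0.70 below its group mean in control 3 and 0.92 below in naphthalene 3, and its r was -0.77 with Pon1, -0.61 with Gabrp and -0.51 with Cckar. Its transcript is rich in G and C (56.7%, above 84.9% of tested genes), as are those of Cbr2 (56.9%) and Lypd2 (56.5%). In naphthalene 1 and naphthalene 3 Cbr2 deviated by -0.39 and 0.35 and Lypd2 by -0.20 and 0.15, against 0.51 and -0.92 for Chad. The tenth of tested genes richest in G and C deviated by -0.19 in control 3, -0.11 in naphthalene 3, -0.20 in naphthalene 4 and 0.23 in naphthalene 1. After a correction for GC content and length, the r of Chad was -0.73 with Pon1, -0.57 with Gabrp and -0.53 with Cckar. The r between Iyd and Pon1 was 0.53 before and 0.13 after that correction, and that between Cbr2 and Pon1 was 0.28 before and 0.57 after.

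**Figure D5:**
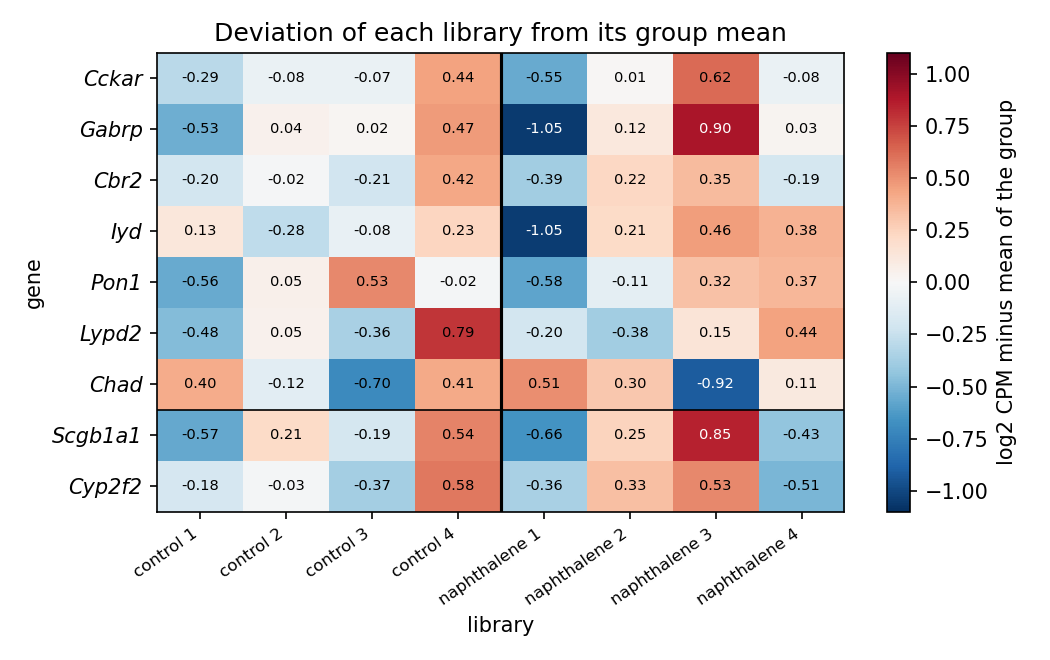
Log2 CPM of each library minus the mean of its group, for the 7 tested members and the references Scgb1a1 and Cyp2f2 (rows) in 8 libraries (columns), red above and blue below the mean. Naphthalene 3 is red and naphthalene 1 blue in every row but that of Chad, and palest for Lypd2. Chad has the opposite colours at 0.51 in naphthalene 1 and -0.92 in naphthalene 3.

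The genes most like each member were sought among 13915 others with a mean of at least 1 CPM, by the same within-group correlation. For Cckar they were Dna2 (r = 0.99), Diablo and Ldhb, and for Gabrp Pgk1 (r = 0.99), Plet1 and Scara5. Chad was most like Enkd1 (r = 0.99) and Oaz1, Iyd like Sytl5 (r = 0.98), Cbr2 like Panx1 (r = 0.99), Tubb4b and Aldh3a1, Pon1 like Cyp2j6 (r = 0.99), Zc3h15 and Parp8, and Lypd2 like Coq3 (r = 0.97), Gramd2b and Efhc2. Unnamed gene models, 1 for Chad and 2 for Iyd, are left out. With 8 libraries and so many genes such values are the highest of a long list, and of the 18 named genes 4 passed as lower (Dna2, Ldhb, Parp8 and Gramd2b) and 3 as higher, beside 14.6% lower and 14.1% higher of all tested genes. The higher ones were Pgk1, Tubb4b and Diablo, at log2 fold changes of 0.86, 0.56 and 0.28, and Scara5 and Panx1 stood at -0.01 and 0.07.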

How the data were processed

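Total RNA was sequenced from 4 control and 4 naphthalene lungs with a stranded total RNA kit, per the labels' protocols. The table the authors deposited holds raw counts for each gene symbol. Per the submitters' processing notes the tools include HISAT2 2.2.1, Trim Galore 0.6.7, edgeR 4.2.1 and featureCounts 2.0.6, with mm39 as the build. Annotation and strand setting were not given in the sources used here. Since RefSeq and GENCODE M21 use GRCm38, another build, only the promoter windows carry coordinates, on GRCm38.p6.

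The test was edgeR 4.0.16 under R 4.3.3 (TMM, filterByExpr with minimum count 10 and total 15, quasi-likelihood test on group, Benjamini-Hochberg, threshold 0.05). Each SE is computed from log2 CPM (prior count 2) as the error of the group difference. Differences between genes within libraries were tested by exact 2-sided permutation over 70 assignments. Alternatives used limma 3.58.1 and DESeq2 1.42.0, other scalings, filters, a replicate block, each library left out and, added after seeing the data, a GC and length correction.

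The members and lists were chosen with earlier results of these data known. Named genes were all members, the references, for each list the 3 called genes lowest in p (2 uncalled genes where there was no call) and the 3 genes most like each member. Others were chosen after their values were seen. No library repeated another: chi-square over its degrees of freedom was 5.57 to 48.5 for pairs within groups. Nothing given here states separate housing or batches, so p-values measure the spread between these mice. In data simulated for naphthalene against control, 14094 genes were in the fit and 11 calls were false. Recovery was 98% for a log2 change of -2, 66.7% for -1, 91.8% for 1 and 100% for 2. Each change was simulated in only 48 to 50 genes of the fit, far fewer than were called in the data. These rates therefore need not hold for the data. Intervals cover counting error only. There were 0 columns of other samples. A marker gene of the thyroid list is not reported here.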

Additional observations from a re-analysis of the deposited data

How the results depend on the processing

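All 7 tested members kept their direction and their side of the threshold with upper quartile or RLE scaling, with a stricter filter or none, with DESeq2, limma voom, removal of mitochondrial and haemoglobin genes, the GC and length correction and each library left out. Over the libraries left out, the log2 fold change was -3.38 to -2.75 for Gabrp, -1.503 to -1.07 for Iyd and -0.97 to -0.69 for Cbr2, with edgeR adjusted p of at most 0.0255 for these and the other members. With the replicate block 7 members were also lower, and it changed no call of a member, while 1 leucine-rich repeat gene listed beside Chad was lower and 5 of 7 interstitial macrophage genes were higher. Same-numbered libraries correlated by 0.29, 0.03, 0.18 and -0.09 in their deviations, and 3 of 8 libraries correlated best with their own number, so the numbers were not taken as pairs. The count of higher genes was 3234 with the GC and length correction against 2005, with 2273 lower, and the cause was not tested. Differences that involve Upk3a moved with a prior count of 0.5 (Upk3a minus Cbr2 from -0.39 to -1.19), whereas the 7 pairs without overlap among the other members were the same 7. The 20 family comparisons past the threshold numbered 20 with that prior count. Depth limits Upk3a, for which 3 counts correspond to 0.179 to 0.275 CPM per library.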

Other observations

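Some genes listed beside Cckar and Iyd were higher after naphthalene, though not all: Dio1, an iodothyronine deiodinase too low to test, was at 6, 7, 4 and 11 counts in controls and 1, 0, 6 and 1 in naphthalene mice. Gast, which encodes gastrin, a ligand of the cholecystokinin receptors, had 0 counts in each of the 4 controls and 14, 5, 7 and 4 in naphthalene 1 to 4. Over the naphthalene libraries it was at 0.551 CPM. That is 9.24 times a floor of 3 counts in all controls together (0.0597 CPM), with the counting error of the naphthalene counts left out. Gast had an exact 2-sided permutation p of 0.0286, the smallest the design allows. It was singled out after its values were seen and was too low for the filtered test. Tshr, the receptor of thyroid stimulating hormone, had 8 counts in every control and 32, 50, 69 and 37 after naphthalene (log2 fold change 2.48, SE 0.33, edgeR adjusted p = 0.000867). It rose in 4 of 4 naphthalene libraries, as did Dio2. These values stand beside the larger number of genes with a count after naphthalene, and the part of that in the result was not tested.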
